A study of Mus musculus with 2 samples.

Results

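Gene deserts are long stretches of chromosome without protein-coding genes. CTCF peaks were assigned to them by position alone: the peak summit had to lie on chromosomes 1 to 19, outside every protein-coding gene of GENCODE M21, and more than 200 kb from the nearest first transcription start site of a protein-coding gene. Of 48806 autosomal peaks in the deposited optimal list, 2650 met this rule. A further 20562 peaks lay in gene-free sequence within 200 kb of a coding start, and 25594 lay inside coding genes. CTCF was measured by chromatin immunoprecipitation and sequencing (ChIP-seq) in limb tissue of B6NCrl mouse embryos at embryonic day 14.5. There was 1 group of 2 libraries, replicate 1 and replicate 2. Per the labels both came from pulverised limbs of male and female embryos pooled over several dissections, so the spread between them may be technical. No treatment or second genotype was included, and no test between conditions was possible. Intervals below are exact 95% intervals for counting error over peaks or genes, which are not replicates. Read depth is unknown, because the peak lists hold no read counts. Peaks of CTCF cannot show which cells of the limb pool carried them.

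CTCF is a zinc finger protein that binds a long, asymmetric DNA sequence and stops the cohesin complex as it extrudes chromatin loops. Loop anchors tend to carry CTCF motifs that point towards each other, so the strand of a motif is informative. In developing tissues, gene deserts beside regulators such as Sox9 or the HoxD cluster hold distant enhancers, and CTCF sites mark boundaries and anchors within them.

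The sequence at the summits carried the CTCF motif. A matrix learned from the strongest peaks outside deserts on odd-numbered autosomes had the 17-base consensus TNGCCACCAGGGGGCGC, where N marks the position at which no base reached 50%. Below are the motifs of the strongest peak in 9 of the 10 deserts with most peaks, with the motif in capitals and 12 flanking bases on each side. They show how far these sites vary around 1 consensus. Each is written 5′ to 3′ on the strand of the motif, in mm10 (GRCm38), and deserts are named by their left and right flanking coding genes.
Mki67 to Mgmt, chr7:136489118-136489158, plus strand: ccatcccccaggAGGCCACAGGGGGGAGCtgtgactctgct
Rps24 to Zmiz1, chr14:25116596-25116636, plus strand: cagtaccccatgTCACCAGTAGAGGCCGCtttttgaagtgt
Tshz3 to Zfp536, chr7:37357843-37357883, minus strand: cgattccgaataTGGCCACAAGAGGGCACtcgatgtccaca
Med13l to Tbx3, chr5:118781738-118781778, plus strand: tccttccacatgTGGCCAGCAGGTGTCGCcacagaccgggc
Tmem132b to Tmem132c, chr5:126623418-126623458, plus strand: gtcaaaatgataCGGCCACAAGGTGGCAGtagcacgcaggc
Tenm3 to Aga, chr8:50293722-50293762, minus strand: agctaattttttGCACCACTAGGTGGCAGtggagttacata
Matn1 to Ptpru, chr4:131486965-131487005, minus strand: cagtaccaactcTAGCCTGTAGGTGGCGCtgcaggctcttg
Kcnj2 to Sox9, chr11:111537827-111537867, plus strand: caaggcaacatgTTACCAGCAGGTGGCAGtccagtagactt
Olfr1507 to Dad1, chr14:53804413-53804453, minus strand: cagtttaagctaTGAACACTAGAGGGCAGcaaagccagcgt
Of the 16 positions with a consensus base, the 9 sites shown matched 10 to 13.

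Other strong desert sites, and the site farthest from any coding start, were read in the same way. The first pair below belongs to the 5 strongest desert peaks, and the last was chosen after its values were seen because of its distance. The gene-free interval between Caln1 and Galnt17 spans only 0.0247 Mb and met the rule by distance to coding starts.
Caln1 to Galnt17, chr5:130853518-130853558, minus strand: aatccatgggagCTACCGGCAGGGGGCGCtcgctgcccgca
Sox9 to Slc39a11, chr11:113165288-113165328, minus strand: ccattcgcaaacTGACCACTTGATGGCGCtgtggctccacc
Pcdh20 to Pcdh9, chr14:91014883-91014923, plus strand: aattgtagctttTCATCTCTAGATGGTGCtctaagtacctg
They matched 12, 11 and 9 of the 16 positions.

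Desert peaks were few for the sequence they cover. They made up 5.43% of autosomal peaks (interval 5.23% to 5.63%), while the sequence that met the distance rule, here called desert cores, covered 540.8 Mb or 22.6% of the assembled autosomes. That is 4.90 peaks per Mb, against 23.8 in gene-free sequence within 200 kb of a coding start and 25.8 inside coding genes. The ratio of desert to nearer gene-free density was 0.206. Counting noncoding genes as genes as well left 147 peaks that met the rule. Of the 2650 members, 374 (14.1%) lay in long noncoding RNA genes, against 12.4% of nearer gene-free peaks. Fewer, 63 members (2.38%) lay within 1 kb of the start of such a gene, against 3.75% of the nearer peaks.

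Peak density fell along the distance axis without a step at 200 kb. Gene-free sequence within 10 kb of a coding start held 47.5 peaks per Mb (46.4 to 48.6), and sequence at 100 to 200 kb held 11.4 (10.97 to 11.9). Inside deserts it was 7.84 per Mb at 200 to 300 kb (7.37 to 8.33), 5.77 at 300 to 500 kb (5.40 to 6.15), 3.41 at 500 to 1000 kb (3.13 to 3.70) and 1.48 beyond 1000 kb (1.23 to 1.77). Neighbouring intervals did not overlap in these desert bins. The last bin rests on 119 peaks.

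**Figure D1:**
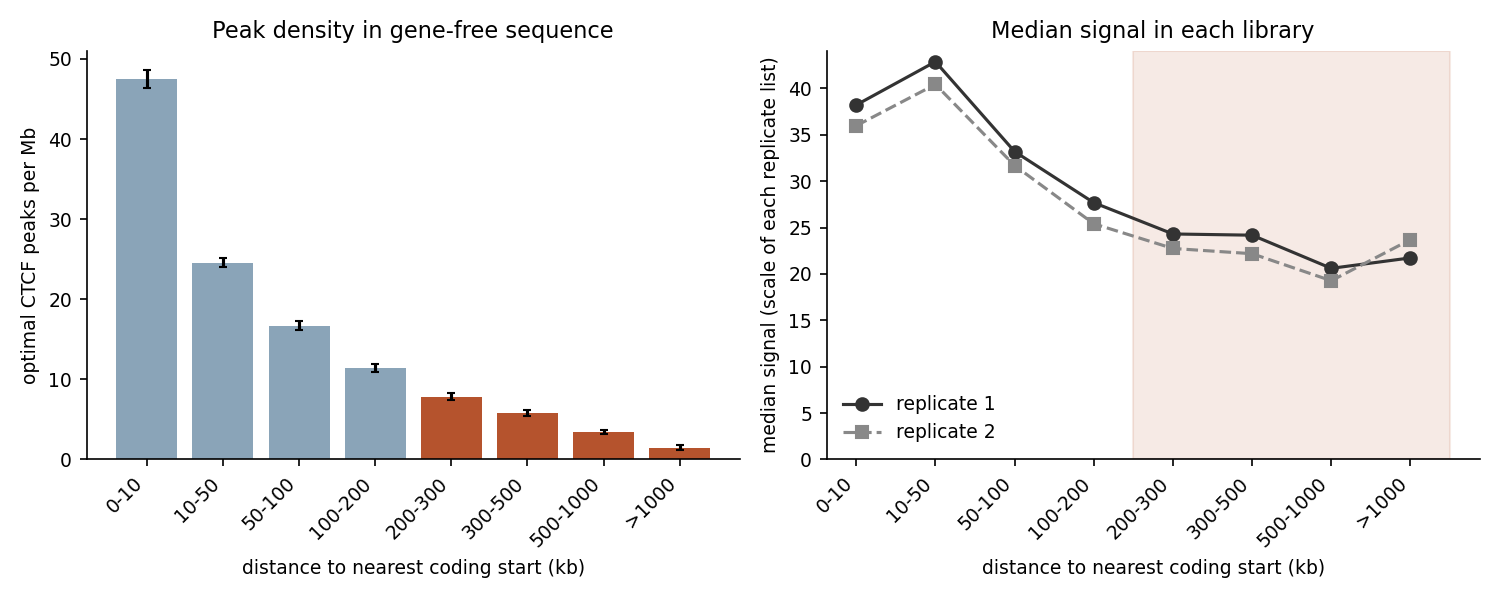
Left, CTCF peaks per Mb of gene-free sequence by distance from the nearest coding start in kb, with exact Poisson 95% intervals and desert bins in rust. Right, the median signal of each replicate in the same bins; density falls from 47.5 to 1.48 per Mb, while median replicate 1 signal is 38.2 in the first bin and 21.7 in the last.

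The median member lay 346 kb from the nearest coding start, and 689 members lay more than 500 kb away. Distance to a start is not distance to a gene: 182 members (6.87%) lay within 50 kb of the body of a coding gene, and the median distance to a gene body was 279.8 kb. Median signal was 51.5 at 100 to 200 kb and 46.9 at 200 to 300 kb. The 3 peaks nearest to it on each side are given only to show where the rule fell. Just outside the rule, peaks at 199.564 kb from Adamts20, 199.779 kb from Apob and 199.835 kb from Lmx1a had signals of 270.9, 249.0 and 124.4. Just inside it, peaks at 200.202 kb from Dapk1, 200.255 kb from Grb14 and 200.487 kb from Map3k1 had signals of 36.7, 21.2 and 23.8. The farthest peak, between the protocadherin genes Pcdh20 and Pcdh9, lay 2543.51 kb from a coding start. Its signal was 43.5, with 18.4 in replicate 1 and 25.9 in replicate 2.

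Distance did not preclude a strong site. Between Celf4, an RNA-binding protein gene, and Pik3c3, a lipid kinase gene, a peak 2194.81 kb from any coding start had a signal of 247.6, with 126.4 and 119.5 in the 2 replicates. Between Tenm3 and Aga, the peak at 2123.59 kb had a signal of 46.0, with 27.1 and 19.7.

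Desert peaks had lower signal than other gene-free peaks. Signal is the authors' own enrichment value for a peak, on the scale of its list. The median over members was 44.7 (quartiles 26.1 to 101.1, range 6.20 to 485.3), against 71.3 in nearer gene-free sequence (32.8 to 168.2) and 52.7 inside coding genes (28.6 to 127.4). The log2 ratio of the desert to the nearer median was -0.67. Both libraries gave the same order: the desert median was 23.3 in replicate 1 and 21.5 in replicate 2, against 37.3 and 35.5 in nearer gene-free sequence and 27.7 and 26.2 inside coding genes. The nearer gene-free median exceeded the desert median on each of the 19 autosomes, in the optimal list and in each replicate, while the desert median exceeded that of coding genes on 2. Within deserts the medians by distance were 46.9, 45.7, 39.1 and 46.0 from the nearest to the farthest bin. The medians fell with density up to 1000 kb. In the farthest bin, of 119 peaks, the replicates differed in direction. Replicate 1 had 21.7 there against 24.3 at 200 to 300 kb, and replicate 2 had 23.7 against 22.7.

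**Figure D2:**
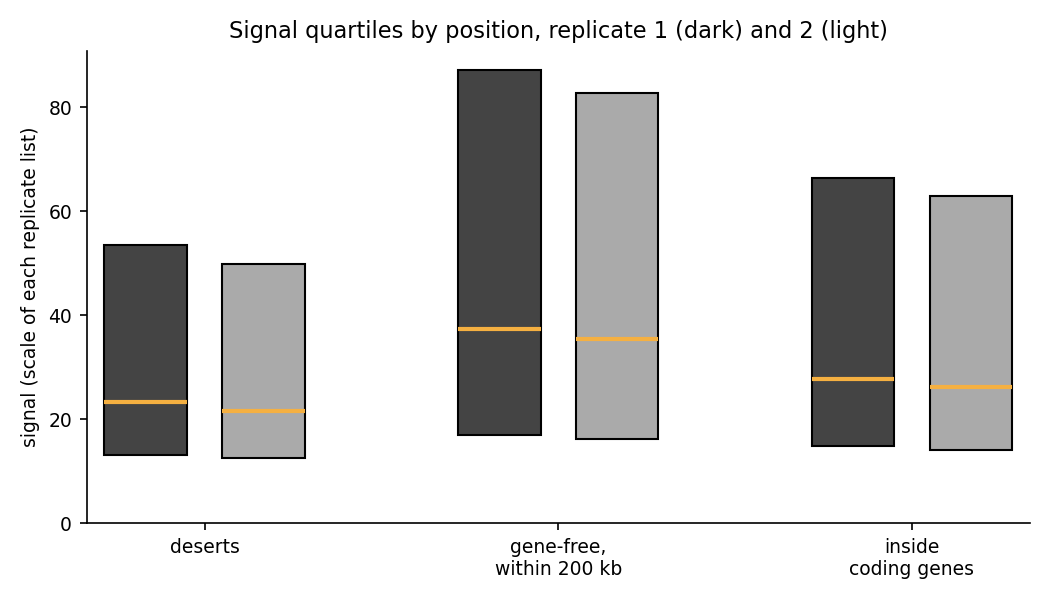
Signal in replicate 1 (dark) and replicate 2 (light) for desert peaks, nearer gene-free peaks and peaks inside coding genes. Boxes span the quartiles and lines mark medians; desert medians are 23.3 and 21.5, and those of nearer gene-free peaks 37.3 and 35.5.

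Most members were also found among the strongest peaks of each library. For this count each replicate list was limited to its strongest 49970 peaks, as many as the optimal list holds, and summits within 100 bp were matched. Of the members, 2009 (75.8%, interval 74.1% to 77.4%) were found in both, beside 81.2% of all autosomal peaks and 84.0% of nearer gene-free peaks. A further 170 members were in neither. The log2 ratio between replicates, scaled by each replicate's median, had an SD of 0.53 over members and 0.50 over all autosomal peaks. Peaks without a value in both replicates have no ratio and are left out of it. Weak peaks varied most: the SD over members was 0.76 in the weakest 10% of autosomal peaks and 0.13 in the strongest 10%. Members lean towards the weak end, with 340 (12.8%) in the weakest 10% and 146 (5.51%) in the strongest.

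Among members with a value in both replicates, those with the largest tilt to 1 library were weak to moderate. A matching summit was found for 2619 members in replicate 1 and 2620 in replicate 2. Members without both were not ranked, so the most one-sided are left out. Of those most tilted to replicate 2, a pair lay between Gm28710 and Speer4f2 (6.23 and 27.6) and between Npvf and Nfe2l3 (8.02 and 33.5), the values being replicate 1 then replicate 2. The 3 most tilted to replicate 1 lay between Bmper and Npsr1 (17.4 and 3.03), Rgs6 and Dpf3 (14.9 and 3.24), and Prickle1 and Adamts20 (17.5 and 3.90).

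Most desert peaks had a motif, at a share near that of all autosomal peaks. Within 50 bp of the summit, 2172 members (82.0%, interval 80.4% to 83.4%) had a motif scoring at least what 5% of windows 1 kb away reach, beside 80.9% of all autosomal peaks. The share was 83.4% in nearer gene-free sequence (82.9% to 83.9%) and 78.8% inside coding genes. On the even-numbered autosomes, which took no part in learning the matrix, 1106 of 1367 members (80.9%) had one. Members with a motif had a median signal of 50.9, and those without one 27.8. Among peaks of like strength, the desert share was 62.4% in the weakest 10% and 99.3% in the strongest, against 56.4% and 96.8% of nearer gene-free peaks. It was not higher throughout: in deciles 7 and 9, counted from the weakest, it was 89.4% and 94.8%, against 90.0% and 94.9%. Motif centres and summits were a median of 7 bp apart.

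Base composition and repeats differed around these summits. GC content over the 201 bases at the summit had a median of 45.8% in deserts, 49.3% in nearer gene-free sequence and 50.2% in coding genes, and was lower than in nearer gene-free sequence on all 19 autosomes. Summits in repeat-masked sequence numbered 401 (15.1%, interval 13.8% to 16.6%), beside 17.4% of all autosomal peaks and 17.6% of nearer gene-free peaks. The repeat share was less uniform, with deserts above nearer gene-free sequence on 6 of the 19 autosomes. Members in repeats had a median signal of 31.2, against 48.4 for the others. The part of GC content and repeats in the signal difference was not tested.

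Deserts were very unequally filled. The rule cut the autosomes into 954 cores, of which 664 held at least 1 peak, 167 held exactly 1, 56 held 10 or more and 5 held 20 or more. The other 290 held none, the longest of them 2375 kb. Core length and number of peaks rose together, with Spearman's rho 0.59 and Pearson's r 0.45 over the 954 cores, given as a description since longer cores offer more room. Density ran the other way: cores of 100 to 300 kb held 10.3 peaks per Mb, those of 1000 to 2000 kb 3.68 and those over 2000 kb 2.21. The 163 cores of at least 1 Mb hold 55.8% of all core sequence but 887 members (33.5%). Within these long cores density ranged from 0 to 16.8 per Mb, with a median of 2.49. It followed base composition (rho 0.474 with GC content) and ran against repeat content (rho -0.596 with the repeat share) across the 163, all read from the same 2 libraries. The part of GC content and repeats in density was not tested, and mappability was not measured.

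**Figure D3:**
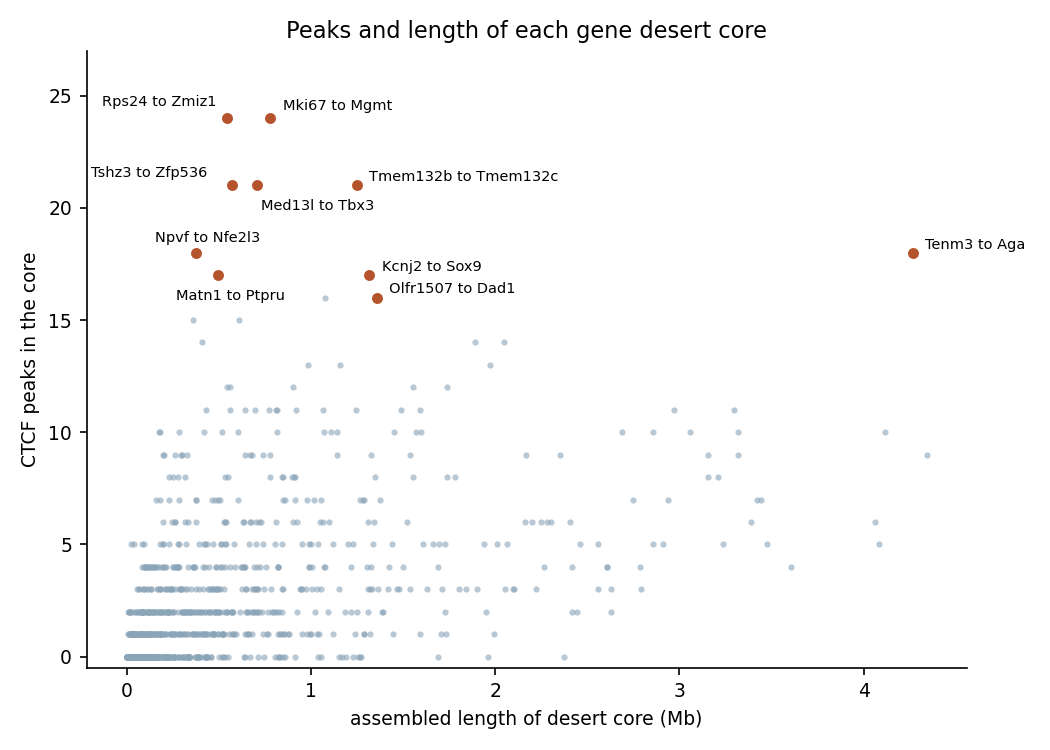
Each point is 1 desert core, with its length in Mb on the horizontal axis and its number of CTCF peaks on the vertical axis. The 10 named deserts hold 16 to 24 peaks, and 9 of them are far shorter than the longest cores, which reach 4.34 Mb.

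The 10 deserts with most peaks together held 197 members (7.43%). Those that border developmental regulators are described first, then those beside other genes. The strong peaks of each are given with their positions. Vrk1 to 3110018I06Rik on chromosome 12 also held 16 peaks, at 14.8 per Mb. It tied with Olfr1507 to Dad1 for the last place and was left out by its lower summed signal.

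Med13l to Tbx3 (chromosome 5, 118765439 to 119670668) lies before Tbx3, a T-box transcription factor needed for limb and digit patterning. The gene on the other side, Med13l, encodes a subunit of the Mediator kinase module. Its core of 0.705 Mb held 21 peaks. Signals ran from 16.7 to 453.5 with a median of 33.8. The 4 strongest lay at the Med13l side: 118774053 (267.0), 118781761 (453.5), 118877562 (128.2) and 118879912 (171.2), and no other peak of the desert exceeded 71.9. The strongest had 234.8 in replicate 1 and 223.5 in replicate 2. All 4 carried forward motifs, while the desert as a whole had 8 forward and 8 reverse.

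Kcnj2 to Sox9 (chromosome 11, 111076822 to 112782223) precedes Sox9, the transcription factor that directs cartilage formation. Kcnj2 encodes an inward rectifier potassium channel. Its 17 peaks stood 12.9 per Mb over a core of 1.32 Mb, with a median signal of 66.4 and a highest of 205.2. Here 9 of 17 exceeded the autosomal median of 58.6, and 15 were among the strongest of both replicates. Summits at 111532665 (176.2, reverse), 111536222 (203.9, forward) and 111537850 (205.2, forward) formed a tight group with motifs pointing apart. The next strong site, 111653076 (161.5), was forward.

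The gene-free stretch on the far side of Sox9, up to Slc39a11, a zinc transporter gene, held 9 more members in a core of 0.263 Mb. A group of 4 strong peaks stood at 113165305 (448.4), 113172603 (308.3), 113175504 (140.6) and 113176361 (194.2). The first had 231.0 in replicate 1 and 221.7 in replicate 2. The other 5 members there had signals of at most 35.5.

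Tshz3 to Zfp536 (chromosome 7, 36773554 to 37472134) lies between 2 zinc finger genes, Tshz3 being a teashirt family transcription factor. It held 21 peaks over 0.574 Mb, from 13.1 to 392.7, with a median of 37.8. A group of 5 strong peaks stood close together: 37346211 (294.0), 37357866 (392.7) and 37360356 (322.8) with reverse motifs, then 37369872 (116.3) and 37374075 (390.4) with forward motifs. The motifs of this group point away from each other around its middle. The strongest lay in repeat-masked sequence, with 205.6 and 186.7 in the 2 replicates.

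Matn1 to Ptpru (chromosome 4, 130955476 to 131768456) borders Matn1, the gene of a cartilage matrix protein, and Ptpru, a receptor tyrosine phosphatase gene. It held 17 peaks over 0.494 Mb with a median of 55.6. The strongest were 131486990 (349.0) and 131431436 (340.6), both reverse, and 131253373 (202.3), forward. Of all 17, 8 exceeded the autosomal median.

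Mki67 to Mgmt (chromosome 7, 135716362 to 136894613) and Rps24 to Zmiz1 (chromosome 14, 24496960 to 25459184) held 24 peaks each, the highest count. Mki67 encodes the proliferation marker Ki-67, Mgmt a DNA repair enzyme, Rps24 a ribosomal protein and Zmiz1 a transcriptional coregulator. In Mki67 to Mgmt the core of 0.778 Mb had a median signal of 43.2, and a single strong peak at 136489140 (319.9, with 160.9 and 157.4 in the replicates) stood far above the next at 113.3. In Rps24 to Zmiz1 the core of 0.544 Mb had a median of 40.3, the strongest peak reached 204.2 and only 5 of 24 exceeded the autosomal median. Of its 17 motifs, 14 were forward.

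Tmem132b to Tmem132c (chromosome 5, 125792584 to 127241807), between 2 genes of transmembrane proteins, held 21 peaks in a core of 1.25 Mb. At 16.8 per Mb it was the densest of the 163 cores of at least 1 Mb. Its peaks were weak, with a median of 29.7 and a highest of 127.0, yet 20 of the 21 had a motif. Only 12 were among the strongest of both replicates, and 10 summits lay in repeats.

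Npvf to Nfe2l3 (chromosome 6, 50654440 to 51432669) lies between a neuropeptide gene and a bZIP transcription factor gene. It held 18 peaks in only 0.378 Mb, or 47.6 per Mb. The strongest desert peak of all stood here, at 50937311 with a signal of 485.3, and 255.5 and 233.3 in the replicates (244 ± 15.7, SD, n = 2). A neighbour at 50939047 (175.1) had the same reverse strand. A second group farther on held 51168241 (239.0) and 51170619 (137.7), both reverse, and 51206884 (164.7) and 51209188 (146.8), both forward.

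Tenm3 to Aga (chromosome 8, 48843952 to 53511726) held 18 peaks in a much longer core. Tenm3 encodes a teneurin, an adhesion protein of neurons, and Aga a lysosomal enzyme. Over a core of 4.27 Mb the density was 4.22 per Mb, and 3 peaks exceeded the autosomal median, at 50293722 (264.4), 49829555 (180.0) and 50292337 (143.3). The strongest differed between libraries, with 154.8 in replicate 1 and 109.6 in replicate 2.

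Olfr1507 to Dad1 (chromosome 14, 52495750 to 54235478) is a desert only in the sense of the rule. It holds 125 T cell receptor gene segments, which the annotation does not type as protein-coding. It had 16 peaks over 1.36 Mb with a median of 33.6, and the strongest were 53804436 (206.7) and 53806402 (134.8). Of its 15 motifs, 13 were forward. Counting all immune receptor segments as genes left 2619 members and a median signal of 44.9.

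**Figure D4:**
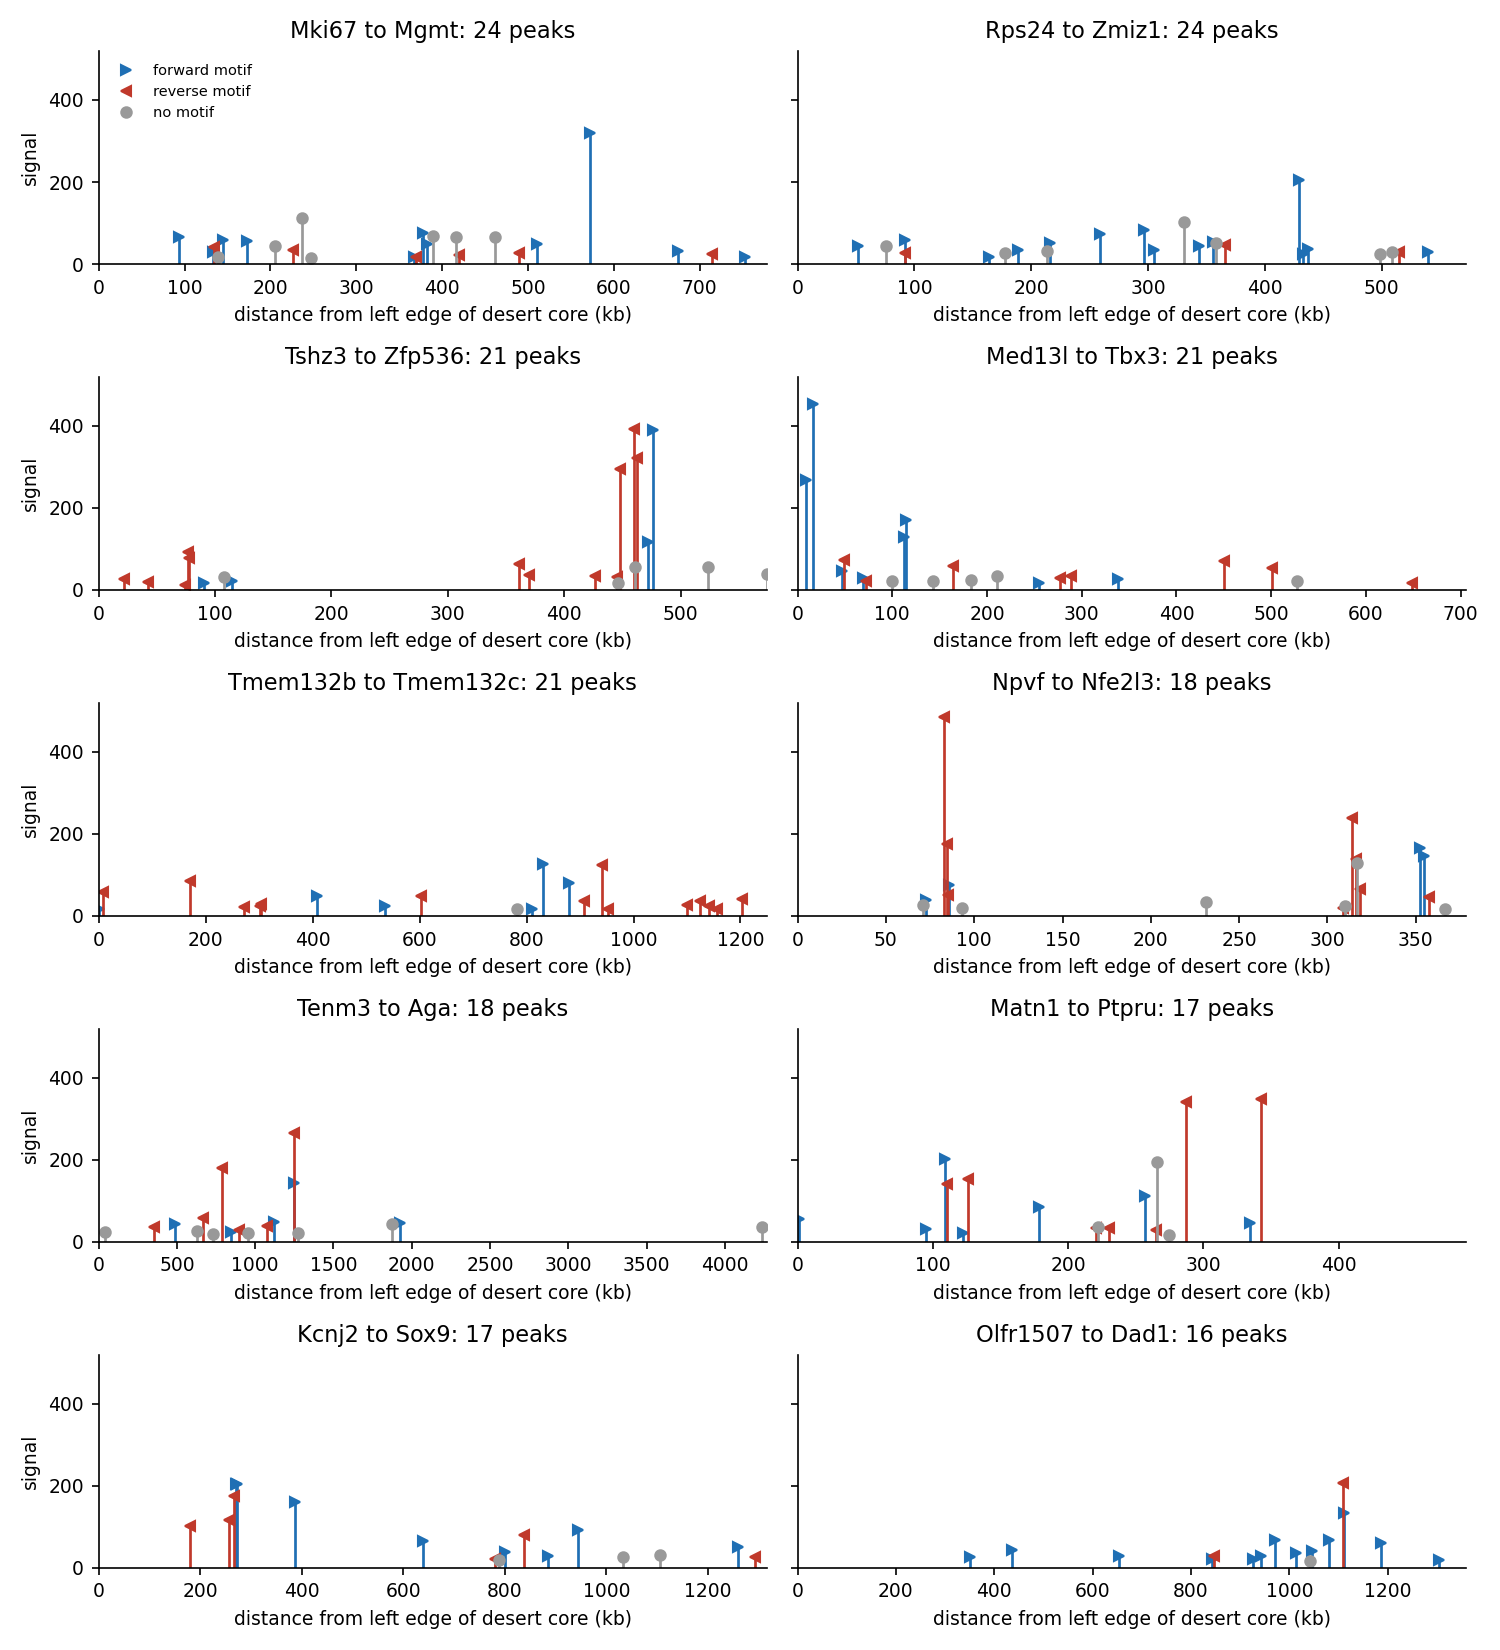
Each panel is 1 of the 10 deserts with most peaks, with distance from the left edge of the core in kb on the horizontal axis and pooled signal on the vertical axis. Each stem is a peak, with blue right-pointing triangles for forward motifs, red left-pointing triangles for reverse motifs and grey circles for no motif; the highest stem, in Npvf to Nfe2l3, reaches 485.3.

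The 10 strongest members came from 9 deserts, and Tshz3 to Zfp536 gave 2 of them. Besides those already given they lay between Caln1 and Galnt17 (483.9), Nrep and Epb41l4a (427.9), A1bg and Myc (420.5), Tnp1 and Tns1 (397.0), and Lurap1l and Mpdz (393.4). All 10 had a motif, 5 on each strand, and all were among the strongest peaks of both replicates. Replicate values were close: 258.4 and 234.6 for the site by Galnt17, a glycosyltransferase gene, and 203.7 and 216.6 for the site between A1bg and Myc, which lay 234.7 kb from the start of A1bg. A strong site did not need a well-filled desert. The A1bg to Myc core held 5 members with a median of 27.8, and the Nrep to Epb41l4a core held 2. Not all of these strong sites were far from a gene body. The gene-free interval between Caln1 and Galnt17 spans only 0.0247 Mb, so it is a desert only in the sense of the rule. Its strongest peak lay 455.0 kb from the nearest coding start. The Nrep to Epb41l4a site, 212.2 kb from a coding start, lay close to the body of Epb41l4a.

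At the other extreme were long cores with no peak at all. The longest were Cox7c to Edil3 on chromosome 13 (2.37 Mb), Ywhaq to Gm10330 on chromosome 12 (1.96 Mb) and 4931408C20Rik to Gm597 on chromosome 1 (1.69 Mb). The longest core of all, Pcdh20 to Pcdh9 at 4.34 Mb, held 9 peaks. Olfm4 to Pcdh17, at 4.06 Mb, held 6, but with a median signal of 177.7 and a highest of 370.5 these few were strong. An empty core holds no peak of the optimal list, and weaker or unmappable sites are not counted.

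Consecutive peaks within a desert core stood from 0.199 kb to 3206 kb apart. Over 1986 pairs of consecutive summits within a core, the spacing had a median of 51.3 kb, quartiles of 13.7 and 135.8 kb and a mean of 130.3 kb. Between consecutive peaks of nearer gene-free sequence the median was 9.17 kb over 11863 pairs. With 12 over 500 kb and the longest at 1383 kb, some of these pairs reach beyond that sequence. The coefficient of variation was 1.91 in deserts and 1.95 in nearer gene-free sequence, both pooled over stretches of unlike density, so it does not show grouping within a desert. Of the desert pairs, 407 (20.5%) were closer than 10 kb and 49 (2.47%) closer than 1 kb, while 653 (32.9%) were over 100 kb apart and 102 over 500 kb.

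The shortest spacing was 199 bp, between summits at 149388933 and 149389132 on chromosome 3 in Adgrl2 to Adgrl4 (signals 16.7 and 7.27). The next shortest were 200 and 206 bp. The longest was 3206 kb in Cntnap5b to Cdh20 on chromosome 1, between 100557103 (55.0) and 103762959 (20.2). In Olfm4 to Pcdh17 a strong peak at 80845756 (249.7) was followed by the next at 83944376 (37.6), 3099 kb on.

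The leading deserts differed in spacing. Median spacing was 2.38 kb in Npvf to Nfe2l3, 10.4 kb in Matn1 to Ptpru, 10.6 kb in Tshz3 to Zfp536 and 13.0 kb in Rps24 to Zmiz1. It was 21.9 kb in Mki67 to Mgmt, 24.2 kb in Med13l to Tbx3, 31.9 kb in Tmem132b to Tmem132c and 35.4 kb in Olfr1507 to Dad1. Kcnj2 to Sox9 (53.1 kb) and Tenm3 to Aga (60.8 kb) were the widest, and the largest single gap in Tenm3 to Aga was 2312 kb.

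**Figure D5:**
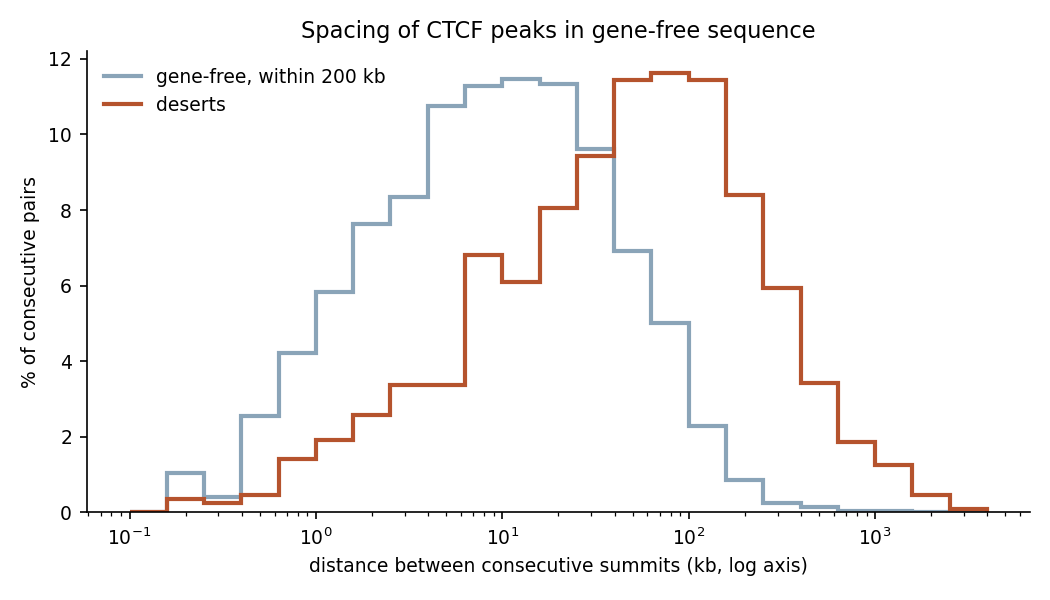
Percent of consecutive peak pairs by spacing on a logarithmic axis in kb, for peaks in deserts and for peaks in gene-free sequence within 200 kb of a coding start. The longest pairs of the nearer set reach beyond that sequence. The desert median is 51.3 kb and the nearer gene-free median 9.17 kb.

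Motif strands were balanced, with 1091 forward and 1081 reverse. Of 1539 pairs of consecutive motif-bearing members, 314 (20.4%, interval 18.4% to 22.5%) were convergent, 889 (57.8%, 55.3% to 60.2%) tandem and 336 (21.8%) divergent. Median spacing was 64.0 kb for convergent, 68.5 kb for tandem and 40.4 kb for divergent pairs, a log2 ratio of convergent to divergent of 0.66. Tandem pairs made up 57.8% in deserts and 54.8% in nearer gene-free sequence. Below 10 kb the tandem shares were 55.7% and 55.2%, and at 10 to 100 kb 54.7% and 54.5%. At 100 to 300 kb the tandem share was 64.9% in deserts (235 of 362, 59.8% to 69.8%). In nearer gene-free sequence it was 53.8% (163 of 303, 48.0% to 59.5%). Convergent pairs made up 18.2% and 28.4% in this range. The tandem intervals just miss each other, but they count pairs that share a motif as separate and may be too narrow. Nearer pairs this far apart may also reach beyond the sequence within 200 kb of a coding start. Among 445 deserts with at least 2 motifs, the outermost pair pointed inwards in 91, outwards in 113 and the same way in 241.

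The longest run of like strands lay on the Mtx2 side of the HoxD genes, which pattern the limb axes. In Mtx2 to Hnrnpa3 on chromosome 2, 9 consecutive reverse motifs spanned 263 kb, from 75055365 to 75318384. The stronger of its 11 peaks were 75055365 (197.7), 75152702 (147.5), 75138099 (136.4), 75151179 (128.9) and 75312421 (116.1). The first had 97.5 in replicate 1 and 103.4 in replicate 2. In Ebf1 to Clint1 on chromosome 11, all 7 motif-bearing peaks were reverse over 640 kb, the strongest at 45008312 (279.6) and 45539654 (253.8). The peak at 45008312, which opens the run, lay just past the end of Ebf1, where the gene-free interval begins (45008092). Ebf1 encodes a transcription factor of B cell and mesenchymal development. Runs of 8 lay in Tmem132b to Tmem132c (reverse) and Rps24 to Zmiz1 (forward), and runs of 7 in Tshz3 to Zfp536 (reverse) and Celf2 to Gata3 (forward). These runs were picked as the longest, so their length is a description.

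Many listed genes of development and of neuronal adhesion flanked a desert with members, but they were few of the 1176 coding genes that did. The lists were written with earlier results of these data known, so the shares are a description. Of 75 limb and developmental regulators, 41 (54.7%, interval 42.7% to 66.2%) flanked a desert with at least 1 member, beside 5.66% of all protein-coding genes. Tshz3 flanked 2 deserts with 28 members in all, Sox9 2 with 26, Tbx3 1 with 21 and Epha4, an ephrin receptor gene, 2 with 15. The transcription factor genes Sall3 and Sall1 had 13 and 12 members beside them, and the growth factor gene Bmp2 had 8. Of 60 genes listed here under neuronal adhesion and guidance, 46 (76.7%, 64.0% to 86.6%) did so. The cadherin genes Cdh8 and Cdh11 and the teneurin gene Tenm3 led, with 18 members each. Cdh8 and Cdh11 flank 1 desert in common, whose 11 members count for both. Of 41 cytosolic ribosomal protein genes, 3 flanked a desert with at least 1 member (7.32%, 1.54% to 19.9%): Rps24, Rpl38 and Rplp1.

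The position of a gene beside a desert can be set apart from the presence of peaks in it. A desert core with or without peaks was flanked by 44 of the 75 regulators, 54 of the 60 adhesion genes, 3 of the 41 ribosomal genes and 1639 of 20780 coding genes. Peaks were present in the desert of 41 of 44, 46 of 54, 3 of 3 and 1176 of 1639. A desert with 10 or more members bordered 7 regulators, 15 adhesion genes, 1 ribosomal gene and 133 coding genes in all. The lists were written with earlier results of these data known, and a flanking gene need not be regulated from its desert.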

How the data were processed

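CTCF ChIP-seq peaks of 2 libraries were used as deposited by the authors, in mm10. Per the file notes, the optimal and conservative lists were derived from both replicate lists and a pooled list. The deposited signal value of each peak is never negative and has the scale of its own list. No aligner, peak caller, control or threshold is named (not given in the sources used here), and the lists hold no read counts.

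Peaks were placed against GENCODE M21 on GRCm38. A peak's replicate signal was taken from the closest summit, at most 100 bp away, among the 300000 peaks of that replicate. The matrix was learned in 10 rounds on the 1000 strongest non-desert peaks of odd-numbered autosomes. A motif is forward where the consensus strand is the plus strand. Sequence came from the GRCm38 reference. Python 3.11.15, NumPy 2.4.6, pandas 2.3.3, SciPy 1.17.1 and pysam 0.24.0 were used, and the steps were tested on simulated data.

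The members and gene lists were chosen with earlier results of these data known. Named items were the 10 deserts with most peaks (ties by summed signal), the 3 longest empty cores, the 10 strongest members, and the extremes of replicate ratio, of distance and at the 200 kb limit. Deserts named for runs, spacing or the longest cores, and the single peaks within deserts, were chosen after their values were seen. Alternatives changed the limit, list, genes, motif settings, merging and replicates. Immune receptor segments were counted as genes in an alternative added after the data were seen. Peaks outside chromosomes 1 to 19 were left out, and a few items that the naming rule takes are not reported here.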

Additional observations from a re-analysis of the deposited data

How the results depend on the processing

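Of 57 alternative values, 29 moved and 0 reversed. Most were counts, shares or spacings, which cannot change sign, so the 0 says nothing about them. Counts were taken as moved beyond 1.5 times, the share in both replicates beyond its interval, and other values beyond the SD of the values that leave out each replicate. Members numbered 2650, and 2294 with all transcript starts, 5038 with a limit of 100 kb, 689 with 500 kb, 147 with all annotated genes and 1065 among the strongest 50% of peaks. The log2 signal ratio of -0.67 became -0.77 at 500 kb and -0.71 with all transcript starts, and -0.66 to -0.62 without either replicate. The share in both replicates of 75.8% became 81.7% in the conservative list, 78.1% at 100 kb and 73.6% at 500 kb. The motif share of 82.0% became 60.9% at the score of 1% of flanks, 81.0% within 25 bp, 76.5% within 100 bp (where the score limit rises) and 92.4% among the strongest 50%. The log2 ratio of convergent to divergent spacing, 0.66, became 0.94 at the 1% score, 0.68 in the conservative list and 1.08 among the strongest 50%. Median spacing of 51.3 kb became 53.8 kb with summits within 1 kb merged, 74.5 kb among the strongest 50%, 37.4 kb at 100 kb and 90.1 kb at 500 kb. The highest count, 24, became 7 with all annotated genes and 9 among the strongest 50%, where 0 and 5 of the 10 leading deserts were shared. The density ratio of 0.206 became 0.202 in the conservative list, 0.149 among the strongest 50%, 0.193 with all transcript starts and 0.200 to 0.201 without either replicate. Limb regulators beside a filled desert numbered 17 at 500 kb and 51 at 100 kb instead of 41. The limits, lists and subsets change which peaks are members by construction, and for the other changes the cause was not tested. Read depth is unknown and limits what an empty core can show.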
